A study of Mus musculus with 9 samples.

Results

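The 30 genes described here encode the route by which glucose enters a cell, is split to pyruvate, and leaves as lactate or enters the mitochondrion. They were taken by name, as a fixed list of glucose transporters, glycolytic enzymes, phosphofructokinase regulators, lactate dehydrogenases, monocarboxylate transporters, pyruvate carrier subunits and pyruvate dehydrogenase subunits. All 30 were present among the 55487 genes of the count table, and all 30 were among the 15237 genes that passed the filter on low counts. The lowest count of any of them in any library was 38, for Pfkfb4. Transcripts of B16F10 cells, an established mouse melanoma line, were sequenced 6 h after treatment. One group received interferon gamma (IFNγ) at 50 ng/mL together with FK866 at 50 nM, another received IFNγ at 50 ng/mL, and the last was kept in media. FK866 blocks NAMPT, which limits the rate of NAD salvage. Each group had 3 libraries, numbered 3, 4 and 5 in their titles, so that each number had 1 library of each treatment. What these numbers stand for is not stated, the word Control precedes them in every group, and no group received FK866 alone. The labels do not say that the libraries of a group came from separate cultures, and the spread behind each p-value may be technical. The treatment text names mouse or human IFNγ and gives a catalogue entry for the mouse protein.

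Glycolysis splits glucose to pyruvate in the cytosol with a net gain of ATP, and its oxidation step, catalysed by GAPDH, uses NAD+ and yields NADH. Lactate dehydrogenase regenerates NAD+ when it reduces pyruvate to lactate, which leaves the cell through monocarboxylate transporters. Pyruvate that is not reduced enters mitochondria through the MPC1 and MPC2 carrier and is turned into acetyl-CoA by the pyruvate dehydrogenase complex, in another step that uses NAD+. Tumour cells, melanoma among them, often run glycolysis at a high rate even where oxygen is present, and NAD+ supply links this route to the target of FK866.

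Library totals ran from 15317003 to 18466972 counts, and the 30 genes together held 1.83% to 2.30% of the counts of a library. Irf1, a direct target of IFNγ signalling, was higher in IFNγ than in media libraries (log2 fold change 5.51, adjusted p = 3.97e-08 by edgeR's quasi-likelihood test), and so was Nampt (1.48, adjusted p = 5.04e-04 in the same edgeR fit). The 7 melanocyte markers summed to 14980 to 17080 CPM (the library-size-normalised count, scaled by TMM) in IFNγ + FK866 libraries, 15540 to 17190 CPM in IFNγ libraries and 16880 to 19020 CPM in media libraries. Of 8 leukocyte markers, 6 had 0 counts in every library, among them Ptprc, and the 8 summed to at most 11.3 CPM in a library. Of 10 fibroblast, endothelial and keratinocyte markers, 4 had 0 counts in every library. The 10 summed to 8.64 to 13.8 CPM with IFNγ + FK866, 8.76 to 12.7 CPM with IFNγ and 13.6 to 19.0 CPM in media. Mitf (−1.27, edgeR adjusted p = 7.73e-04) and the fibroblast marker Col1a2 (−1.69, edgeR adjusted p = 0.00952) were called lower with IFNγ than in media without and with the number as a replicate block, and Sox10 and Tyr with it. The part of these marker differences in the results below was not tested. Libraries of the same number deviated together from their group means (correlation from 0.555 to 0.728 over 9 pairs). The 18 pairs of different numbers had −0.477 to −0.112. Deviations within a group sum to 0, so these negative values follow from the positive ones and are no separate evidence. Because libraries of the same number deviated together, results are given from 2 fits, without and with the number as a replicate block.

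Per kilobase of exon, the main isozymes from aldolase onward had the highest levels of the 30 genes. Gapdh ranked first with 1394 ± 130.7 CPM per kb, followed by Aldoa with 716.8 ± 61.3, Pkm with 666.6 ± 58.1, Eno1 with 623.1 ± 91.8, Pgk1 with 474.3 ± 83.0 and Ldha with 440.1 ± 41.4 CPM per kb (SD over 9 libraries). The spreads of Aldoa, Pkm and Eno1 overlap, and so do those of Pgk1 and Ldha, so their order within these sets is not separated by the libraries. The transporters, hexokinases and phosphofructokinases lay an order of magnitude or more below Ldha, with Slc16a1 at 28.5 ± 3.83, Hk2 at 26.6 ± 12.5, Pfkl at 18.4 ± 6.16 and Slc2a1 at 14.3 ± 1.92 CPM per kb. The lowest were Eno2 at 1.24 ± 0.690 and Pfkfb4 at 0.755 ± 0.228 CPM per kb. Whether reads covered whole transcripts is not stated, so these levels per length assume that they did. The length was that of all annotated exons of a gene joined, which can exceed the length of the transcripts present.

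**Figure D1:**
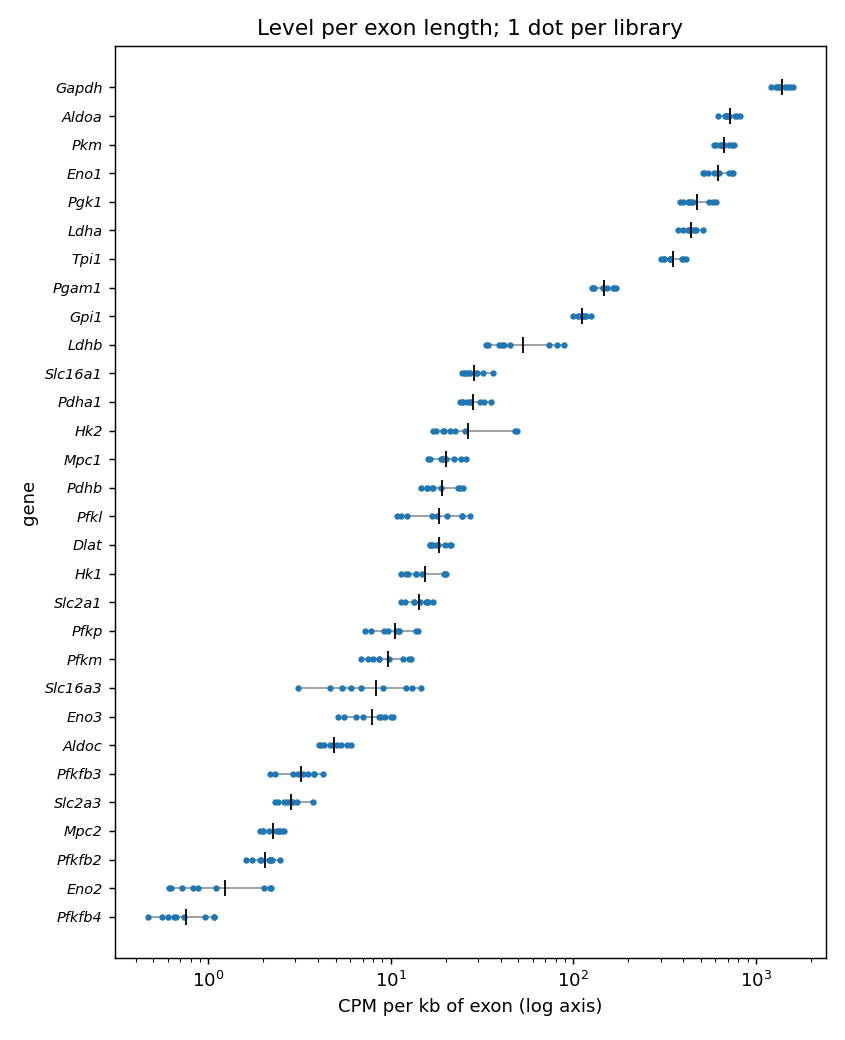
Level of each gene per exon length, in CPM per kb on a log axis, with 1 dot per library and a black tick at the mean of 9 libraries. Gapdh lies highest at 1394 and Pfkfb4 lowest at 0.755, and Hk2, Slc16a3, Ldhb and Eno2 show the wide spreads described below.

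Some steps with several isozymes were carried mainly by 1 of them, read per length within each library. Eno1, the common enolase, made up 98.3% to 99.0% of the 3 enolase transcripts, Aldoa 99.2% to 99.5% of the 2 aldolases, and Slc2a1, the glucose transporter GLUT1, 80.8% to 87.4% of the 2 glucose transporters. Other steps varied between libraries. Hk2 made up 56.3% to 70.9% of the 2 hexokinases, Pfkl 35.6% to 54.3% and Pfkp 19.4% to 36.3% of the 3 phosphofructokinases, Ldhb 6.65% to 16.4% of the 2 lactate dehydrogenases and Slc16a3 8.85% to 35.1% of the 2 monocarboxylate transporters. The order of Pfkl and Pfkp depends on the length used, 6675 bases of joined exons for Pfkl and 13401 for Pfkp. Undivided, Pfkp averaged 152.3 CPM with IFNγ + FK866, 155.5 with IFNγ and 114.8 in media, and Pfkl 117.6, 124.8 and 126.8 CPM. Pfkfb3 made up 47.6% to 58.6% of the 3 phosphofructokinase regulators. These steps are taken up gene by gene below.

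Promoter windows from RefSeq (GRCm38.p6) were matched for 29 of the 30 genes, as 44 windows of 250 bases before an annotated start, with Slc2a3 unmatched. They were searched on both strands for ACGTG, the core of the element bound by hypoxia-inducible factors. ACGTG was in 17 of the 44 windows (38.6%), against 16.6% of 32851 windows of all genes. The other motif searched, TTCNNNGAA, was in 2 of the 44 windows (4.55%), against 7.02% of the windows of all genes. A palindromic CACGTG counts as a pair of overlapping ACGTG matches, and a match is only a match of letters. The windows of Hk2, Slc16a3, Pfkp and Ldhb are shown because these are the genes on which the treatment and number comparisons turn. They are given 5′ to 3′ on the gene's strand, with ACGTG or its reverse complement in capitals. Hk2 (chr6:82774455-82774704, minus strand) has matches whose first bases lie at −226 and −52 from the start, Slc16a3 (chr11:120948817-120949066, plus strand) at −27 and −14, and Pfkp (chr13:6648772-6649021, minus strand) and Ldhb (chr6:142507958-142508207, minus strand) have no match in this window.
Hk2: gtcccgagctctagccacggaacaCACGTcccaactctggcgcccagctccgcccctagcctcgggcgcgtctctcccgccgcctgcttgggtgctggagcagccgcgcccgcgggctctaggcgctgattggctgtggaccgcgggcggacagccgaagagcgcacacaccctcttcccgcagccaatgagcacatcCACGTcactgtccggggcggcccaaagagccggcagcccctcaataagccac
Slc16a3: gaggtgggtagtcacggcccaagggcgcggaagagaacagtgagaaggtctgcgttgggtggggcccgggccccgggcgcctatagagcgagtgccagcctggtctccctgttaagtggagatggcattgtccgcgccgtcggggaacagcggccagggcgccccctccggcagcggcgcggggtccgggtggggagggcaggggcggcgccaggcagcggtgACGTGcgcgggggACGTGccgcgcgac
Pfkp: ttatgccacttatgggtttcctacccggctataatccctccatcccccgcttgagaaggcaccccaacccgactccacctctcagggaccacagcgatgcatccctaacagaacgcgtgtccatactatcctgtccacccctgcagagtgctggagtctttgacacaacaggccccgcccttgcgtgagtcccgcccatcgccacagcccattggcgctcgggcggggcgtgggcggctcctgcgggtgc
Ldhb: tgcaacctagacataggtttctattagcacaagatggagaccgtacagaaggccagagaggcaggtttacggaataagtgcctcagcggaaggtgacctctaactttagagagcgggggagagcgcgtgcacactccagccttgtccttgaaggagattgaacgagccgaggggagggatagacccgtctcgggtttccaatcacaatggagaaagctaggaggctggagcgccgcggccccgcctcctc

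Few of these genes were called between treatments, and with the number as a block they were called about as often as all genes. Without the block, none of the 30 was called at an adjusted p below 0.05 between IFNγ + FK866 and IFNγ, between IFNγ and media or between IFNγ + FK866 and media, while 0%, 3.3% and 3.36% of all 15237 genes were called in these 3 comparisons. At an unadjusted p below 0.05, edgeR's quasi-likelihood test counted 0, 0 and 1 of the 30, against 0.578%, 10.2% and 10.6% of all genes. DESeq2 without the block also called 0 of the 30 in each comparison, against 0%, 4.03% and 3.82% of the genes it tested. With the number as a block, 1 gene was higher and 3 were lower in IFNγ than in media, against a background of 8.12% of all genes called higher and 6.14% called lower. In IFNγ + FK866 against media, 1 was higher and 4 were lower, against 8.53% and 7.61% of all genes, and with library totals in place of TMM the split was 1 and 10, against 8.7% and 7.97% of all genes. In both directions together and with TMM, these comparisons called 4 and 5 of the 30, beside 2173 and 2459 of the 15237 genes. Both comparisons use the same media libraries. The median log2 fold change of the 30 with the block was −0.05 for IFNγ against media and −0.13 for IFNγ + FK866 against media, beside −0.01 and −0.02 over all genes. Pfkp was the only 1 of the 30 called in both comparisons in every blocked fit that left out a number. In bulk RNA, fewer cells of a kind and less RNA per cell cannot be told apart.

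**Figure D2:**
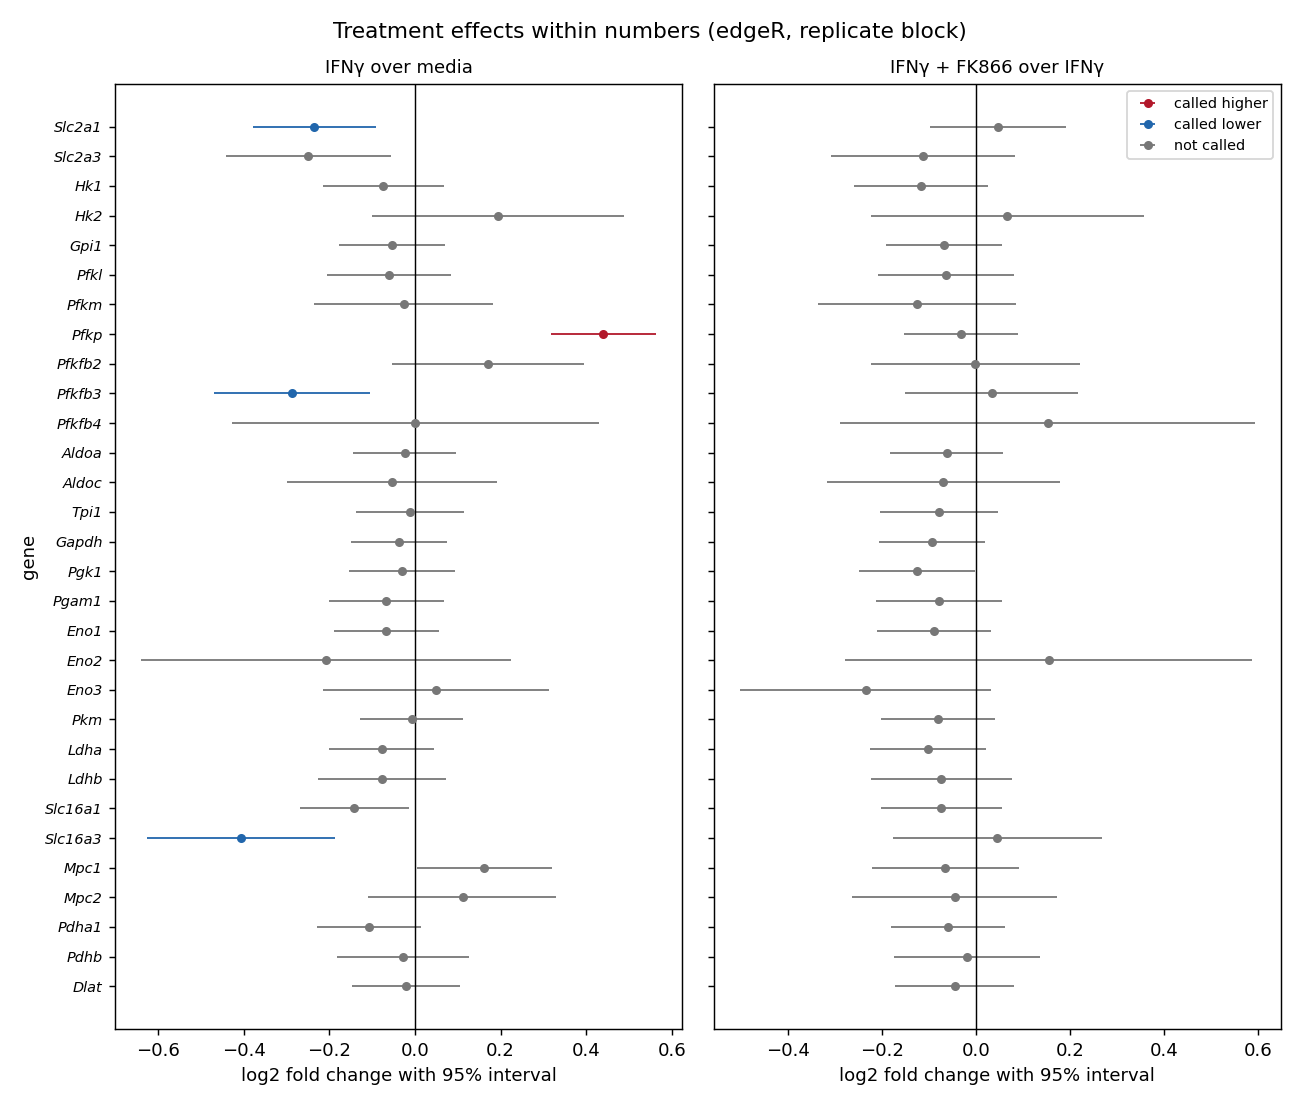
Log2 fold change of each gene with its 95% interval from edgeR with the replicate block, for IFNγ over media on the left and IFNγ + FK866 over IFNγ on the right. Against media, Pfkp is called higher and Slc2a1, Pfkfb3 and Slc16a3 are called lower, and between IFNγ + FK866 and IFNγ no gene is called.

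Among the glucose transporters, Slc2a1 (GLUT1, on chromosome 4 from 119108711 to 119137983 of GRCm38, GENCODE M21) was lower with IFNγ than in media in the fit with the block. Its levels for numbers 3, 4 and 5 were 56.3, 47.3 and 42.2 CPM in IFNγ + FK866 libraries, 54.5, 47.0 and 39.7 CPM in IFNγ libraries and 59.4, 55.4 and 50.4 CPM in media libraries. The groups overlap, but within each number the media library was the highest of its 3. With the block, the log2 fold change of IFNγ over media was −0.24 (SE 0.069, edgeR adjusted p = 0.0236), and without number 4 the adjusted p was 0.122, without number 5 it was 0.208, and DESeq2 with the block gave 0.0813. Slc2a3, the high-affinity transporter GLUT3, had 16.8, 20.4 and 17.5 CPM with IFNγ + FK866, 18.9, 20.7 and 19.5 CPM with IFNγ and 21.03, 27.2 and 22.2 CPM in media. All 3 media libraries lay above all 6 libraries with IFNγ. With the block it was lower in IFNγ + FK866 than in media by a log2 fold change of −0.36 (SE 0.092, edgeR adjusted p = 0.00829), a call lost without number 4 (0.122) or number 5 (0.0509). The difference between IFNγ and media was −0.25 on the log2 scale and was not called (edgeR adjusted p = 0.083).

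Hk2, the inducible hexokinase bound to mitochondria, was 86.4% above media with IFNγ + FK866 and 90.5% above media with IFNγ in number 3, while in numbers 4 and 5 these differences lay between −13.0% and 6.94%. It lies on chromosome 6 from 82725025 to 82774454 on the minus strand. Its levels in number 3 were 285 CPM with IFNγ + FK866, 291.3 CPM with IFNγ and 152.9 CPM in media. In number 4 they were 105.2, 102.1 and 117.4 CPM in the same order of treatments, and in number 5 they were 134.6, 115.9 and 125.9 CPM. The IFNγ libraries of number 3, with and without FK866, thus stood above all 7 other libraries, and the media library of number 3 was the highest of the media group by a smaller margin. Within numbers, the ratio of IFNγ to media was 1.91 in number 3, 0.870 in number 4 and 0.920 in number 5. Over the groups no call was made, and with the block the log2 fold change of IFNγ over media was 0.19 (95% interval −0.10 to 0.49, edgeR adjusted p = 0.486). An interaction term, added after these values had been seen, asked whether the effect of IFNγ differed between number 3 and the mean of numbers 4 and 5, with the effect of FK866 taken as equal in all numbers. It was 1.01 on the log2 scale (SE 0.099, 95% interval 0.81 to 1.21, edgeR adjusted p = 1.21e-06). Hk2 was the only 1 of the 30 genes with this call, against 0.886% of all genes, and DESeq2 and each of 6 fits without a library with IFNγ also called it, with log2 values from 0.93 to 1.09. Because the media group has 1 library per number, the contrast rests on single media libraries, and fits without one of them could not be made. Hk1, the constitutive hexokinase, had 167, 96.8 and 103.9 CPM with IFNγ + FK866, 171.7, 106.2 and 117.9 CPM with IFNγ, and 169.9, 125.9 and 116.9 CPM in media. It was highest in number 3 in every treatment, with an interaction of 0.19 that was not called (edgeR adjusted p = 0.386).

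**Figure D3:**
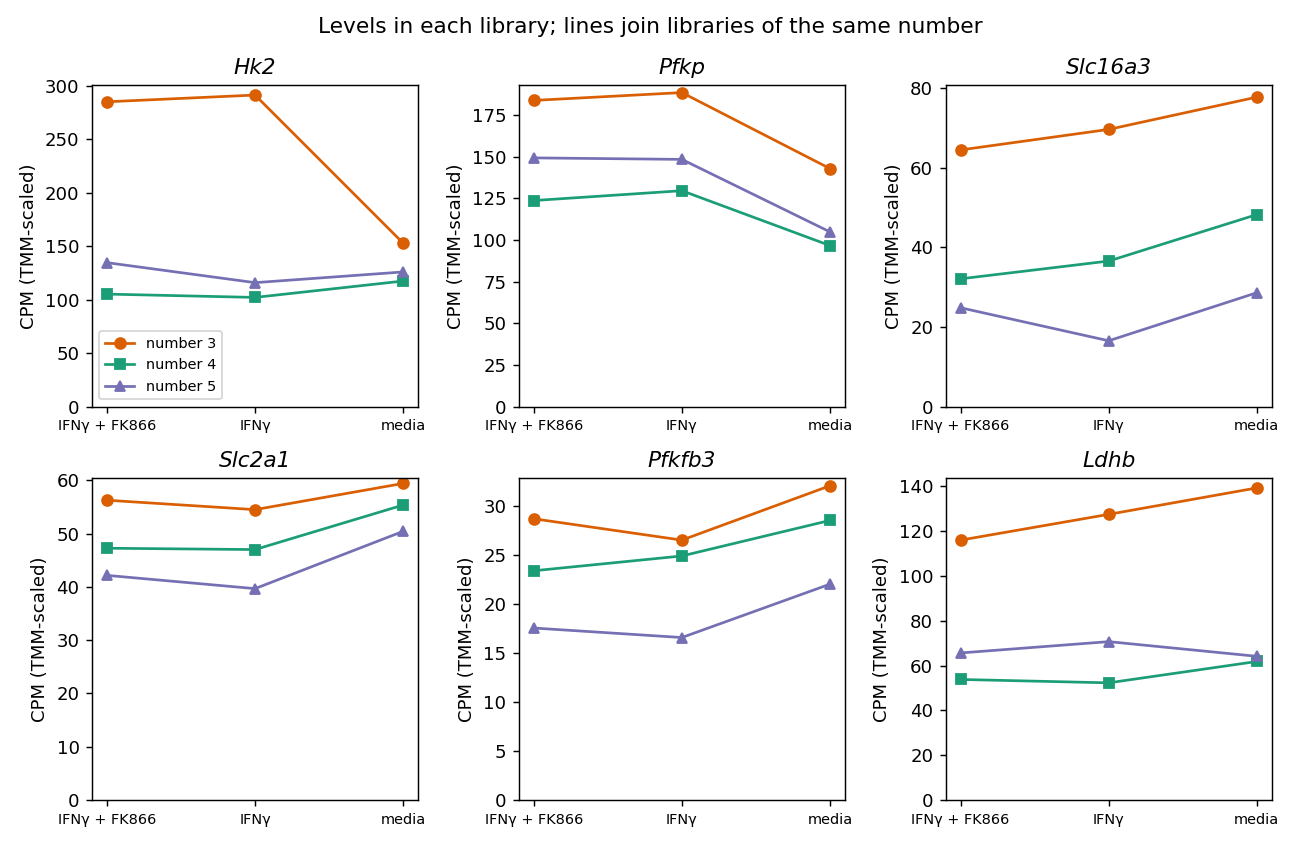
CPM of 6 genes in each library, with lines joining the 3 libraries of 1 number and axes starting at 0. Hk2 is at 285 and 291.3 CPM in the number 3 libraries with IFNγ and at 152.9 CPM or less in all others, and Pfkp is lowest in media within each number.

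At the phosphofructokinase step, which commits sugar to glycolysis, Pfkp (the platelet-type subunit, on chromosome 13 from 6579768 to 6648777) was higher with IFNγ in the fit with the block. Its levels for numbers 3, 4 and 5 were 183.8, 123.7 and 149.3 CPM with IFNγ + FK866, 188.5, 129.6 and 148.4 CPM with IFNγ, and 142.9, 96.7 and 104.9 CPM in media. The groups overlap, yet within the 3 numbers the IFNγ library lay above its media library by 32.0%, 34.0% and 41.4%. With the block, the fold of IFNγ over media was 1.36 (log2 fold change 0.44, SE 0.059, 95% interval 0.32 to 0.56, edgeR adjusted p = 1.15e-05), and that of IFNγ + FK866 over media was 1.33 (edgeR adjusted p = 2.72e-05). It stayed called without any 1 number and with DESeq2. Without the block the same fold was not called (log2 fold change 0.44, edgeR adjusted p = 0.529). The liver-type subunit Pfkl and the muscle-type subunit Pfkm were not called for any treatment, with blocked log2 fold changes of −0.06 and −0.03 for IFNγ over media. Pfkp's share of the 3 subunits, per length, was 25.9%, 27.2% and 36.3% with IFNγ in numbers 3, 4 and 5, against 22.4%, 19.4% and 28.3% in media.

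The PFKFB enzymes make and break fructose 2,6-bisphosphate, an activator of phosphofructokinase. Pfkfb3, the isozyme with the strongest kinase activity, had 28.7, 23.4 and 17.6 CPM with IFNγ + FK866, 26.5, 24.9 and 16.6 CPM with IFNγ, and 32.1, 28.5 and 22.0 CPM in media. It was lower than in media within every number. With the block the log2 fold change of IFNγ over media was −0.29 (SE 0.087, edgeR adjusted p = 0.0289), and the call was lost when number 3 (0.112), number 4 (0.0653) or number 5 (0.186) was left out and with DESeq2 (0.118). In IFNγ + FK866 over media it was −0.25 with an edgeR adjusted p of 0.0506. Pfkfb2 lay at 11.6 to 17.9 CPM and Pfkfb4 at 2.27 to 5.27 CPM over the 9 libraries, and neither was called for a treatment.

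From aldolase to pyruvate kinase no gene was called for a treatment by edgeR with all libraries and TMM scaling, with or without the block. Some were called under alternatives. For IFNγ + FK866 over media with the block, Eno1 was called in 2 of 6 alternatives and Gapdh in 1 of 6. Gpi1, which isomerises glucose 6-phosphate, Aldoa, Tpi1, Gapdh, Pgk1, Pgam1, Eno1 and Pkm had blocked log2 fold changes of IFNγ over media between −0.07 and −0.01, and of IFNγ + FK866 over media between −0.16 and −0.09. Pgk1, which makes the first ATP of the pathway, had 1240, 895.1 and 859.7 CPM with IFNγ + FK866, 1354, 953 and 959.8 CPM with IFNγ, and 1311, 1015 and 991.3 CPM in media. Within each number the IFNγ + FK866 library was the lowest. Its blocked log2 fold change of IFNγ + FK866 over media was −0.16 (SE 0.059, edgeR adjusted p = 0.0839), and DESeq2 with the block called it (adjusted p = 0.0281). Gapdh, the NAD+-dependent step, had 6125, 4966 and 5324 CPM with IFNγ + FK866, 6610, 5361 and 5538 CPM with IFNγ, and 6368, 5574 and 5975 CPM in media. With TMM scaling, its lowest library in every number was also that with FK866, by −0.13 on the log2 scale against media (SE 0.054, edgeR adjusted p = 0.12). In number 5 that order depends on the scaling. The log2 difference from IFNγ was −0.057 there, with TMM factors of 0.9982 with IFNγ + FK866 and 0.9532 with IFNγ. The minor isozymes Aldoc, Eno2 and Eno3 lay at 13.3 to 19.8, 2.86 to 10.3 and 8.95 to 17.8 CPM and were not called for a treatment.

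Among 4 genes of lactate formation and export, with the block 1 was called lower in IFNγ than in media and 3 were called lower in IFNγ + FK866 than in media, beside 6.14% and 7.61% of all genes. Slc16a3, the lactate exporter MCT4 (chromosome 11 from 120948480 to 120960868), had 64.5, 32.1 and 24.8 CPM with IFNγ + FK866, 69.6, 36.6 and 16.5 CPM with IFNγ, and 77.7, 48.2 and 28.6 CPM in media for numbers 3, 4 and 5. The media library was the highest in every number, while the spread between numbers was wider than that between treatments. With the block, the log2 fold change was −0.41 for IFNγ over media (SE 0.105, edgeR adjusted p = 0.0098) and −0.36 for IFNγ + FK866 over media (SE 0.105, edgeR adjusted p = 0.021). The first call was lost without number 4 (0.0675) or number 5 (0.0546), the second without number 4 (0.382). Slc16a1, the widely expressed transporter MCT1, had 113.5, 108 and 131.4 CPM with IFNγ + FK866, 117, 113.1 and 141.7 CPM with IFNγ, and 119.5, 130.3 and 161.2 CPM in media. Its order was the same in every number, lowest with FK866 and highest in media. The blocked log2 fold change of IFNγ + FK866 over media was −0.21 (SE 0.061, edgeR adjusted p = 0.0176), and was not called without number 4 (0.191) or number 5 (0.165). Ldha, the isozyme that favours lactate formation, had 1408, 1444 and 1236 CPM with IFNγ + FK866, 1531, 1546 and 1312 CPM with IFNγ, and 1498, 1707 and 1428 CPM in media. Its IFNγ + FK866 library was the lowest in each number, with a blocked log2 fold change of −0.18 against media (SE 0.059, edgeR adjusted p = 0.0422, and 0.284 without number 4 or 0.142 without number 5). Ldhb, the isozyme prevalent in heart, was not called for a treatment.

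Among the genes of pyruvate entry none was called for a treatment by edgeR with all libraries and TMM scaling. Mpc1 and Mpc2, the 2 subunits of the mitochondrial pyruvate carrier, lay at 33.2 to 53.5 and 14.0 to 19.1 CPM. Mpc1 was higher with IFNγ than in media in every number, with a blocked log2 fold change of 0.16 (SE 0.075, edgeR adjusted p = 0.197). Its annotated pseudogene held 16.7% as many counts, so how reads were shared between both is uncertain. Pdha1 and Pdhb, the E1 subunits of pyruvate dehydrogenase, lay at 89.9 to 131.9 and 56.4 to 95.9 CPM, and Dlat, its E2 subunit, at 79.9 to 104.8 CPM. Pdha1 was lower with IFNγ than in media in every number (blocked log2 fold change −0.11, SE 0.058, edgeR adjusted p = 0.294). It was also lower with IFNγ + FK866 than in media in every number (blocked log2 fold change −0.17, edgeR adjusted p = 0.0571). That difference was called in 1 of 6 alternatives.

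FK866 added to IFNγ left no called difference in any of the 30 genes, with or without the block, where 0.0197% of all genes were called with the block. At an unadjusted p below 0.05, the blocked fit of edgeR counted 1 of the 30 and 573 of all genes (3.76%). That gene was Pgk1, with a log2 fold change of −0.13 (95% interval −0.25 to −0.002, edgeR adjusted p = 0.987). The intervals show which sizes these libraries could still hold. For Gapdh the 95% interval was −0.21 to 0.02, for Ldha −0.23 to 0.02, for Pfkp −0.15 to 0.09 and for Hk2 −0.22 to 0.36 on the log2 scale. The widest were those of Pfkfb4, from −0.29 to 0.59, and Eno2, from −0.28 to 0.59. Between the 2 libraries of each number, 13 of the 30 genes were lower with IFNγ + FK866 in all 3 numbers and 2 were higher in all 3, against 16.2% and 12.2% of all genes. The 2 were Slc2a1 and Pfkfb4. These signs were read with TMM scaling only. The TMM factor was higher with IFNγ + FK866 than with IFNγ in every number (0.9982 against 0.9532 in number 5). Library totals would thus shift the differences upward, and some are small, such as −0.057 on the log2 scale for Gapdh in number 5. The median log2 fold change of the 30 was −0.07, beside −0.01 over all genes.

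More of these genes were called between numbers than between treatments, as was so for all genes. The 3 libraries of a number differ in treatment and are not repeats of it. The p-values between numbers thus rest on the spread left after treatment and number. Between number 3 and the mean of numbers 4 and 5, with treatment as a term of the fit, 21 of the 30 were called higher and 3 lower, against 19.6% and 18.9% of all genes. The median log2 fold change was 0.31 over the 30 and −0.002 over all genes. Every step from uptake to pyruvate kinase had at least 1 gene called higher in number 3 except isomerisation by Gpi1, and aldolase had it only through its minor isozyme Aldoc. That call was made in 8 of 14 alternatives. Between number 4 and number 5, 6 were called higher and 8 lower, against 15.9% and 15.2% of all genes, with medians of −0.02 over the 30 and 0.01 over all genes. With library totals in place of TMM this split was 10 higher and 5 lower, against 23.6% and 10.1% of all genes. The balance of directions between numbers 4 and 5 thus depends on the scaling, while number 3 had 21 higher and 3 lower under both, with 19.7% of all genes called in each direction with library totals. Melanocyte markers differed between numbers too, with Dct called higher and Mitf and Sox10 called lower in number 3, and Tyr (−1.81 on the log2 scale) and Pmel (−0.22) called lower in number 4 than in number 5. Of the other markers, the fibroblast marker Pdgfra was lower in number 3 (−1.68) and higher in number 4 than in number 5 (1.84), Pdgfrb was higher in number 3 (0.52), and the macrophage marker Cd68 was higher in number 4 than in number 5 (1.47). Cd68 lay at 3.08 to 11.3 CPM, and the leukocyte markers Adgre1, Csf1r, Itgam and Ptprc had 0 CPM in every library. The part of the markers in these differences was not tested, and neither was that of whatever the numbers stand for.

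**Figure D4:**
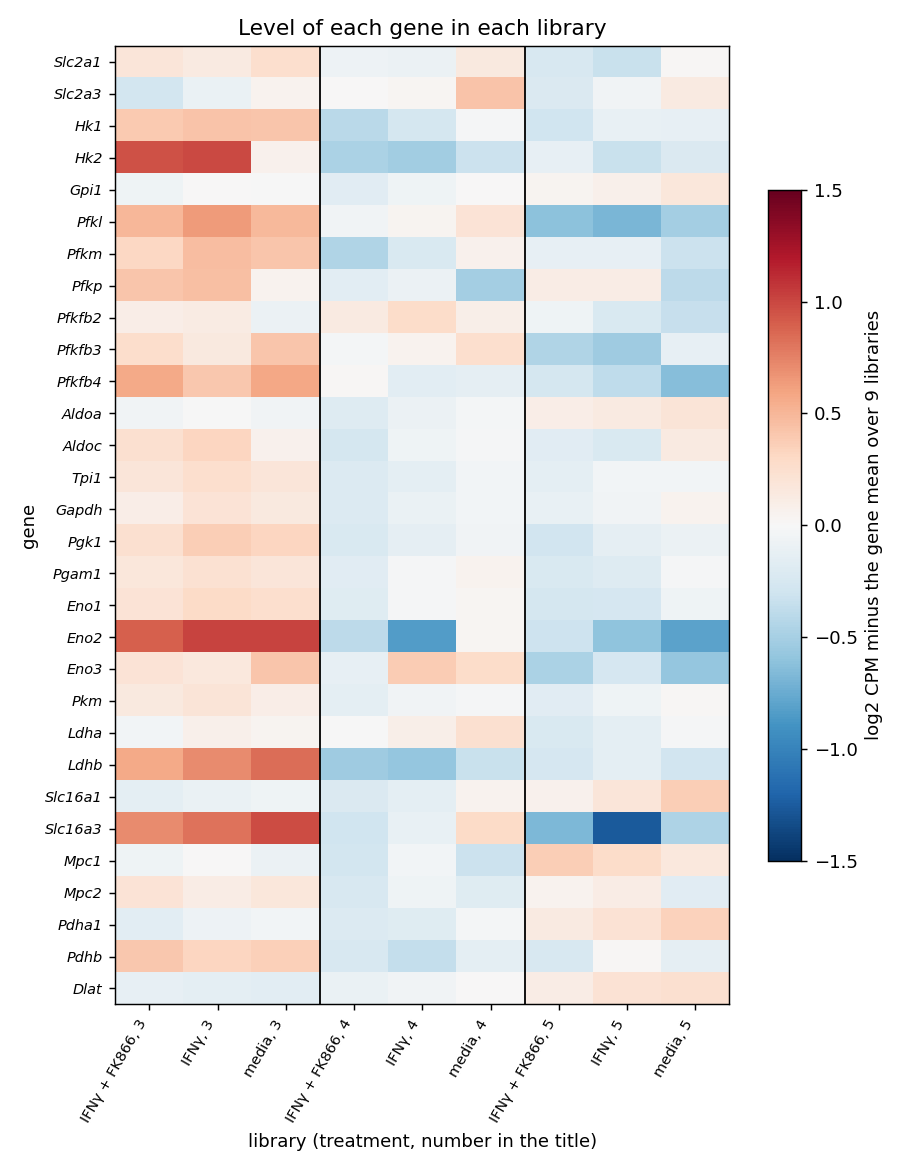
Level of each gene in each library as log2 CPM minus the gene's mean over 9 libraries, with genes in pathway order and libraries ordered by number and, within a number, IFNγ + FK866, IFNγ and media. The 3 libraries of number 3 are above the mean for most genes, and Hk2 is high only in the 2 of them with IFNγ.

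The 5 largest differences in number 3 were those of Eno2, Slc16a3, Ldhb, Hk2 and Pfkl. Of the windows printed above, those of Slc16a3 and Hk2 hold ACGTG and that of Ldhb does not, and the windows of Eno2 and Pfkl hold none, while 44.8% of the 29 genes with a window hold it. Eno2, the neuronal enolase, had a mean of 10.1 ± 0.443 CPM in number 3. It had 3.99 ± 1.17 in number 4 and 3.48 ± 0.606 in number 5 (here and below, SD over 3 libraries, 1 of each treatment). Its log2 fold change was 1.44 (SE 0.167, edgeR adjusted p = 1.02e-06), at the low level of a minor isozyme. Slc16a3 averaged 70.6 ± 6.69 CPM in number 3, 39.0 ± 8.32 in number 4 and 23.3 ± 6.17 in number 5, and no library of a number overlapped with another number. It was higher in number 3 by 1.24 on the log2 scale (SE 0.087, edgeR adjusted p = 9.31e-10) and in number 4 over number 5 by 0.74 (SE 0.110, edgeR adjusted p = 3.76e-05). Ldhb averaged 127.6 ± 11.7 CPM in number 3, 55.9 ± 5.12 in number 4 and 66.8 ± 3.43 in number 5. This gave a log2 fold change of 1.06 (SE 0.059, edgeR adjusted p = 3.57e-11), while its partner Ldha did not pass the test between number 3 and the others (0.04, edgeR adjusted p = 0.572). Hk2 had 1.03 (SE 0.118, edgeR adjusted p = 7.65e-07), a value that includes the libraries with IFNγ described above, since in media alone number 3 had 152.9 CPM against 117.4 and 125.9 CPM. Pfkl averaged 170.1 ± 10.6 CPM in number 3, 122.2 ± 11.5 in number 4 and 77.0 ± 4.96 in number 5, with no overlap between numbers, by 0.81 for number 3 over the others and 0.67 for number 4 over number 5 (edgeR adjusted p = 1.33e-09 and 7.31e-07).

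**Figure D5:**
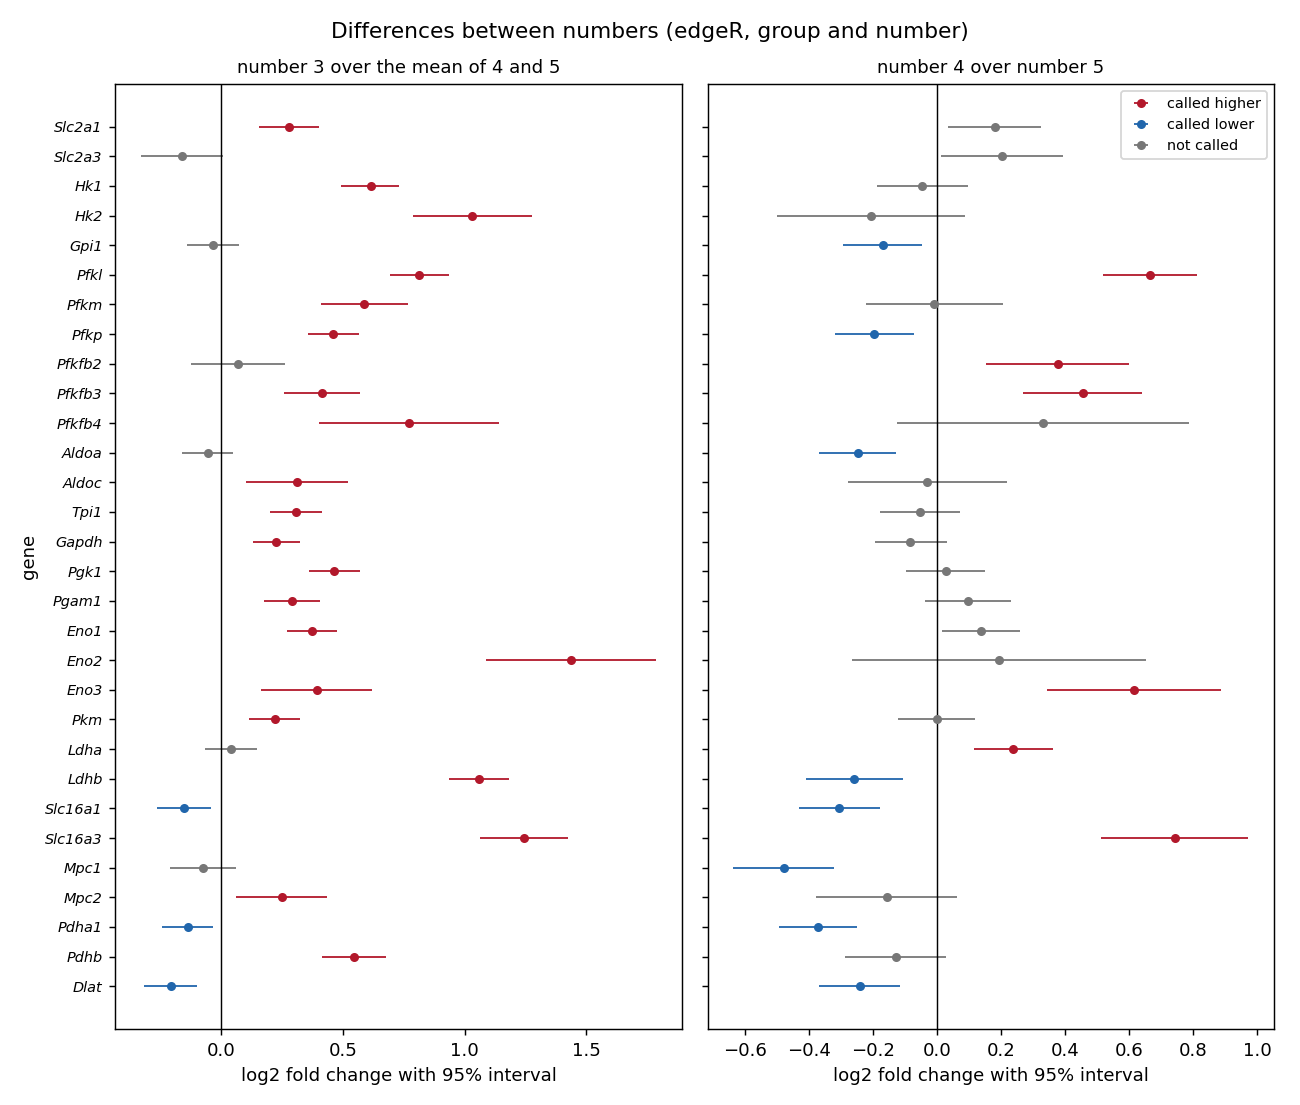
Log2 fold change of each gene with its 95% interval from edgeR with treatment and number as terms, for number 3 over the mean of numbers 4 and 5 on the left and number 4 over number 5 on the right. In the left panel 21 genes are called higher and 3 lower, with Eno2 at 1.44 and Slc16a3 at 1.24, and in the right panel 6 are called higher and 8 lower.

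Further genes called higher in number 3 were Pfkfb4 (0.77 on the log2 scale), Hk1 (0.61), Pfkm (0.59), Pdhb (0.55), Pgk1 (0.46), Pfkp (0.46) and Pfkfb3 (0.41). The abundant enzymes followed with smaller values, among them Eno1 (0.37), Tpi1 (0.31), Pgam1 (0.29), Gapdh (0.23) and Pkm (0.22), beside Slc2a1 (0.28). Lower in number 3 than in the mean of numbers 4 and 5 were Dlat (−0.21), Slc16a1 (−0.15) and Pdha1 (−0.14), 3 genes of pyruvate or lactate handling. All 3 had their highest mean in number 5. For numbers 3, 4 and 5, Pdha1 averaged 97.4, 94.4 and 122.2 CPM and Slc16a1 116.7, 117.1 and 144.7 CPM, so numbers 3 and 4 were alike. Dlat averaged 80.7, 85.9 and 101.5 CPM. Of the subunits of pyruvate dehydrogenase, Pdhb was thus called higher and Pdha1 and Dlat lower than that mean. Outside the 30 genes, its components Pdhx (0.505, edgeR adjusted p = 5.65e-06) and Dld (0.166, edgeR adjusted p = 0.0182) were also called higher in number 3. Calls for Aldoc, Eno3, Mpc2, Slc16a1 and Pdha1 in this comparison were lost under at least 1 alternative. Aldoc and Mpc2 were each called in only 8 of 14 alternatives, and Eno3 in 11. Gpi1, Aldoa, Ldha, Pfkfb2, Mpc1 and Slc2a3 were not called. Between number 4 and number 5, Eno3 (0.62), Pfkfb3 (0.46), Pfkfb2 (0.38) and Ldha (0.24) were higher beside Slc16a3 and Pfkl. Mpc1 (−0.48), Pdha1 (−0.37), Slc16a1 (−0.31), Ldhb (−0.26), Aldoa (−0.25), Dlat (−0.24), Pfkp (−0.20) and Gpi1 (−0.17) were lower. Of these 14 calls, those of Gpi1, Pfkp, Pfkfb2, Ldha, Ldhb and Slc16a1 were lost under at least 1 alternative, and 9 genes were called without the IFNγ library of number 5. Gpi1 was called in only 5 of 14 alternatives, Ldhb in 9 and Ldha in 12.

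Genes of neighbouring pathways were called between treatments with the block. Without it, no gene of 5 further lists was called in any treatment comparison by edgeR. With the block, where 8.12% of all genes were called higher and 6.14% lower with IFNγ over media, the 5 lists had 6 genes higher and 9 lower. Among 8 measured kinases, phosphatases and other components of pyruvate dehydrogenase, Pdk3, a kinase that inhibits the complex, was higher with IFNγ over media (0.30, edgeR adjusted p = 0.00435). Among 8 measured genes of further isozymes and transporters, Slc2a6 was higher (0.66, edgeR adjusted p = 3e-04). Of 15 genes of the pentose phosphate and hexosamine branches, Pgm2 was higher and Gfpt1 and Gfpt2, the entry enzymes of hexosamine synthesis, were lower. Of 14 genes of NADH shuttles and anaplerosis, Got1 was higher and Gpd1 and Slc25a13 were lower. Of 17 measured regulators, Txnip and Emb, a partner protein of MCT transporters, were higher and Myc, Egln1, Egln3, Prkaa1 and Prkaa2 were lower. Txnip, an inhibitor of glucose uptake, had 141.5, 56.2 and 69.9 CPM with IFNγ + FK866, 158.7, 63.8 and 70.3 CPM with IFNγ, and 33.6, 10.0 and 14.8 CPM in media. All 6 libraries with IFNγ lay above all media libraries, with a blocked log2 fold change of 2.36 for IFNγ over media (edgeR adjusted p = 8.58e-15) and an adjusted p of 0.0505 without the block. In IFNγ + FK866 over media, all of these genes but Pgm2 were called again in the same direction. Between IFNγ + FK866 and IFNγ no gene of these lists was called with the block.

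Pdk1, a pyruvate dehydrogenase kinase and a known target of hypoxia-inducible factors, followed the numbers as Slc16a3 and Pfkl did. It had 59.6, 38.7 and 17.4 CPM with IFNγ + FK866, 72.8, 38.6 and 20.4 CPM with IFNγ, and 77.2, 48.3 and 25.3 CPM in media for numbers 3, 4 and 5. The numbers did not overlap, with log2 fold changes of 1.24 for number 3 over the others and 1.00 for number 4 over number 5. With the block it was also lower in IFNγ + FK866 than in media (−0.40, edgeR adjusted p = 7.24e-04). Egln3, another such target, did not have that order. It was highest in number 4 (12.4 CPM with IFNγ + FK866, 11.9 CPM with IFNγ and 18.4 CPM in media), and was higher there than in number 5 by 2.10 on the log2 scale.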

How the data were processed

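The authors deposited raw read counts per Ensembl gene, 1 column for each of 9 libraries of polyA RNA, seen from the values, which are whole and sum to unequal totals. Per the submitters' processing notes, which give no role or order, the tools were cutadapt 1.16, STAR 2.7.6a, DESeq2 1.30.1 and featureCounts 1.6.3, and the builds GRCm38 and mm10. The series text names a platform for single cells, but without values per cell the table was read as bulk RNA. The strand setting is not stated, so reads of overlapping antisense pairs cannot be told apart.

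Symbols were assigned to 55141 genes, and 55227 matched GENCODE M21 (GRCm38), the source of coordinates and exon lengths. Aldoa has 2 Ensembl IDs, of which the one with more counts was used. Annotated copies held at most 1.01% of the counts of a gene described here, except the Mpc1 pseudogene. Replicate libraries differed by far more than counting error (chi-square over its degrees of freedom, 21.6 to 37.2), so each counted once.

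Counts were tested in R 4.3.3 with edgeR 4.0.16 (TMM, filterByExpr, quasi-likelihood F test) on all 9 libraries, with Benjamini-Hochberg adjustment over 15237 genes, with 99.89% of the counts, and a call at an adjusted p below 0.05. The fits held the group means, the group with the number as a replicate block (also used to compare numbers), or these with an interaction. Every pair of same-numbered libraries deviated together (lowest correlation 0.555), which is where the pairing comes from. The fits without and with the block, but not the interaction, were run on simulated data. Most genes there had no difference between numbers, so this does not show how the fits handle the differences between numbers seen here. Alternatives were DESeq2 1.42.0, DESeq2 size factors, library totals, no filter, no group term and leaving out libraries. All 30 genes could be named, and genes of other lists only where called, or as a marker or treatment check. The 30 genes and the lists were chosen with earlier results of these data known.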

Additional observations from a re-analysis of the deposited data

Results flagged for a closer look

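The effect of IFNγ, with or without FK866, on Hk2 differed between number 3 and the mean of numbers 4 and 5 by 1.01 on the log2 scale (edgeR interaction term, adjusted p = 1.21e-06). It is listed here because the same contrast differed between sets of libraries by a test of the difference itself. Within number 3 the change from media was 86.4% with IFNγ + FK866 and 90.5% with IFNγ, whereas within number 4 it was −10.4% and −13.0%, and within number 5 it was 6.94% and −7.98%. The term was added after the Hk2 values had been seen, and what number 3 stands for is not stated.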

How the results depend on the processing

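The replicate block took the genes called among the 30 to 4 for IFNγ against media and 5 for IFNγ + FK866 against media, and it turned the log2 fold change of Slc16a3 between IFNγ + FK866 and IFNγ to 0.046, with no call. Over all genes the block called 2173, 3 and 2459 for IFNγ against media, IFNγ + FK866 against IFNγ and IFNγ + FK866 against media, where the fit without it called 503, 0 and 512. With no block, the adjusted p of the 30 genes was at least 0.344. Within the blocked fits, DESeq2 called 2 of the 30 for IFNγ against media, and library totals in place of TMM called 11 for IFNγ + FK866 against media and turned Pfkp between IFNγ + FK866 and IFNγ to 0.006. Without a group term, 9 of the 30 were called between numbers 4 and 5. The cause was not tested.

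When 1 number was left out of the blocked fits, 1 to 3 of the 30 were called for IFNγ against media and 1 to 7 for IFNγ + FK866 against media, with only Pfkp called in all 3 such fits. Hk2 then ran from −0.155 to 0.4 for IFNγ against media and from −0.014 to 0.491 for IFNγ + FK866 against media, with number 3 left out at the low end. Between IFNγ + FK866 and IFNγ, Pfkp ran from −0.044 to 0.001, Pfkfb3 from −0.001 to 0.114 and Slc16a3 from −0.138 to 0.178. Leaving out 1 library called 9 to 17 of the 30 between numbers 4 and 5, where 9 came without the IFNγ library of number 5 against 14 with all libraries. It called 1 to 2 in the interaction, where Slc16a3 was added without the IFNγ + FK866 library of number 5.

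In the fit without the block, leaving out 1 library changed the sign of uncalled log2 fold changes. For IFNγ against media these ran from −0.274 to 0.624 for Hk2, −0.206 to 0.117 for Pgk1 and −0.954 to 0.087 for Slc16a3. For IFNγ + FK866 against IFNγ they ran from −0.073 to 0.167 for Slc2a1, −0.502 to 0.685 for Hk2, −0.188 to 0.134 for Pfkp, −0.149 to 0.201 for Pfkfb3, −0.312 to 0.064 for Pgk1, −0.163 to 0.027 for Slc16a1 and −0.52 to 0.612 for Slc16a3. For IFNγ + FK866 against media they ran from −0.14 to 0.669 for Hk2 and −0.854 to 0.075 for Slc16a3. None of the alternatives run reversed any of the 30 genes between number 3 and the others. Counts over all genes that moved by over 1.5 times were, without the block, 314 for IFNγ against media without the media library of number 4 or 5 or the IFNγ library of number 4, and for IFNγ + FK866 against media 322 without the media library and 328 without the IFNγ + FK866 library of number 4. With the block and without number 4 they were 1402 and 1398 for these comparisons. The blocked count of 3 between IFNγ + FK866 and IFNγ was 9 with DESeq2, 8 without number 3 and 1 without number 4 or with library totals. Without a group term, 3896 in place of 5869 were called between number 3 and the others and 2484 in place of 4733 between numbers 4 and 5, where 3062 were called without the IFNγ library of number 5. The interaction called 23 with DESeq2 and 65 to 466 without 1 library, against 135. Pfkfb4 and Eno2, with lowest counts of 38 and 47 in a library, had the widest intervals between IFNγ + FK866 and IFNγ. The part of depth in this was not tested.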
